A study of Mus musculus with 4 samples.

Results

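The 10 genes described here, which T cells switch on through the antigen receptor, were followed across the cell states of tumour-infiltrating CD8 T cells: the early growth response factors Egr1, Egr2 and Egr3, the growth regulator Myc, the interferon regulatory factors Irf4 and Irf8, the repressor Bhlhe40, the phosphatase Dusp2 and the NF-kB inhibitors Nfkbid and Nfkbia. They were taken by symbol from the count matrices, and all 10 were found among 32285 genes. The cells were sorted as CD45, CD3 and CD8 positive from B16F10 tumours, a transplantable melanoma, in C57BL/6J mice aged 6 to 8 weeks, and were read with 10x Genomics 5-prime libraries. There were 2 groups of 2 samples: sgScr, by its name a control guide RNA, and sgArid1a, a guide RNA against Arid1a, whose product binds DNA as part of SWI/SNF, a remodeller of chromatin. Neither the cells that carried the guide nor separate animals for the 2 samples of a group are named in the labels, so the spread that p-values measure here is that between samples and may be technical.

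Engagement of the T cell receptor activates calcium, MAP kinase and NF-kB signalling. The Egr genes are immediate early targets of the MAP kinase route, and Egr2 and Egr3 are known in T cells for restraining the response as well as marking it. Irf4 is induced in proportion to receptor signal strength and, with Batf, shapes effector and exhausted cells. Nfkbia encodes the inhibitor that NF-kB itself induces and that holds NF-kB in the cytoplasm, while Nfkbid encodes a nuclear inhibitor-like protein that modifies NF-kB activity at its targets. Several of these transcripts are short-lived, so their level tracks recent signalling more closely than that of most genes.

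The Arid1a transcript was at 85.2 and 93.6 CPM, a UMI count scaled to the total of the same cells, in sgScr, and at 74.1 and 72.6 CPM in sgArid1a. The groups did not overlap, with a log2 fold change of -0.26 ± 0.06 (SE) and an edgeR adjusted p of 0.00425; without sgScr replicate 2 the adjusted p was 0.0954, the highest of 15 alternatives, whose lowest was 0.000381. A transcript level does not show whether the protein was disrupted. The T cells numbered 7636 and 7157 in sgScr and 10695 and 12771 in sgArid1a, with 32201336 to 81447081 UMIs per sample and median UMIs per cell of 2407 to 4025. Cd3e, of the T cell receptor complex, was found at 874 to 947 CPM and the co-receptor gene Cd8a at 525 to 702 CPM. Any pair of libraries shared 74 to 217 cell barcodes, 1.03 to 2.03% of the smaller library. Cells carrying the expanded receptor segments Trbv13-1 or Trbv20 made up 8.03 to 8.09% of sgScr and 15.3 to 16.8% of sgArid1a T cells. Sums over all T cells mix states, so fewer cells of a kind and less RNA per cell cannot be told apart in them.

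Cells were divided into 9 classes with the 10 genes kept out of the clustering. Of these, 7 were named from markers, as naive/central memory-like, memory-like, exhausted-like, cycling-like, interferon-stimulated-like, innate killer-like and early-activated-like. The last was marked by Tnf, Ifng, Ccl3, Ccl4, Xcl1, Crtam, Tnfrsf9, Nr4a1 and Nr4a3. Cluster 3 and cluster 11 stayed unnamed, and cluster 11 held 307 cells with a median of only 1286 UMIs. Naive/central memory-like cells made up 59.2 and 57.8% of sgScr T cells but 20.9 and 25.0% of sgArid1a T cells, a description without a test. The early-activated-like share was 1.87 and 1.62% (sgScr) against 3.21 and 3.91% (sgArid1a), exhausted-like cells 4.69 and 4.97% against 10.7 and 10.9%, and cycling-like cells 2.99 and 3.10% against 9.64 and 10.2%.

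With the T cells of each sample summed, 8 of the 10 genes were higher in sgArid1a, 0 were lower and 2 did not pass the edgeR quasi-likelihood test at an adjusted p of 0.05. Of all 12792 genes tested, 54.4% were called in either direction, 28% higher and 26.4% lower. The median log2 fold change was 0.56 over the 10 genes and -0.02 over all genes. In 8 of the 10 genes the groups did not overlap, against 76.1% of all genes. The largest differences were in Irf8, Egr2, Bhlhe40 and Irf4, and those of Egr1, Myc and Nfkbia were smaller. DESeq2 called 7 of the 10, and 5379 of all genes.

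**Figure D1:**
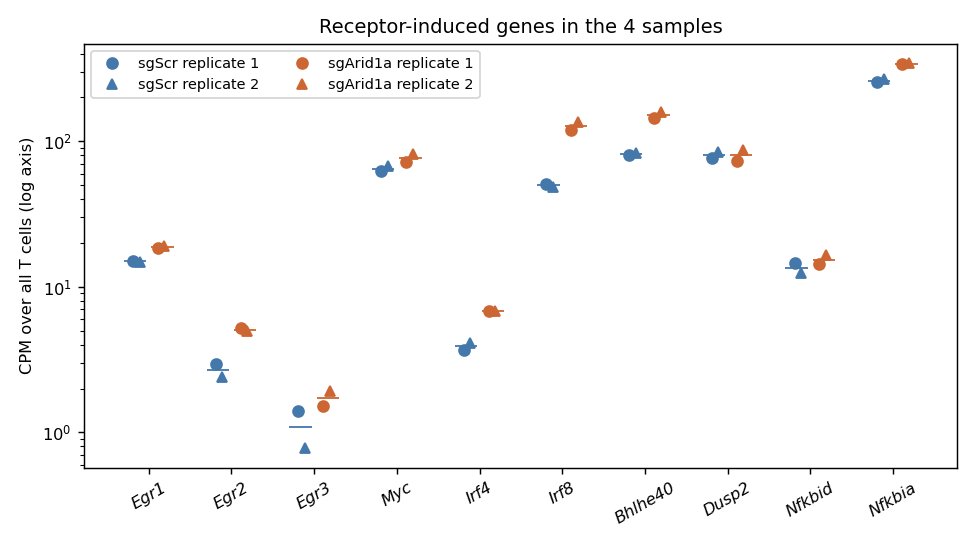
CPM of the 10 genes over all T cells (log axis), 1 point per sample and a line at each group mean; circles are replicate 1 and triangles replicate 2. Irf8, Bhlhe40, Irf4 and Egr2 are separated most between the groups, while Dusp2 and Nfkbid overlap.

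Within classes far fewer tests passed. Counting each gene in each class, 74 of 90 combinations had enough counts to test, and 13 were called higher and 1 lower. In naive/central memory-like cells 4 of 8 tested genes were higher and 0 lower, where 6.51% of all genes were called, 4.35% higher and 2.16% lower. In cycling-like cells 4 of 10 were higher and 0 lower, against 6.09% of all genes, 3.31% higher and 2.78% lower. In exhausted-like cells 2 of 9 were higher and 1 lower, against 9.5% of all genes, 5.13% higher and 4.37% lower. In memory-like cells 1 of 9 was higher, against 3.28% of all genes, 2.28% higher and 0.99% lower. In early-activated-like cells 1 of 9 was higher, against 2.86% of all genes, 1.92% of them higher. In cluster 11 it was 1 of 6, against 3.45%, 2.75% of them higher.

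No gene was called by edgeR in cluster 3 (0 of 9, with 0.603% of all genes called and 0.428% higher), in interferon-stimulated-like cells (0 of 7, with 1.28%) or in innate killer-like cells (0 of 7, with 1.53% and 1.1% higher). At an unadjusted p under 0.05 these classes had 2, 1 and 1 genes. The share of all genes at that threshold was not counted, so nothing is read from these numbers. DESeq2 called 0 in each, where it gave an adjusted p to 6 of 9, 1 of 7 and 1 of 7 genes. Of all genes it called 22 of 9114, 22 of 7565 and 73 of 7994 there. Groups did not overlap for 5 of 9 tested genes in memory-like cells (51.5% of all genes), 6 of 8 in naive/central memory-like (51.7%), 6 of 9 in exhausted-like (54.3%) and 7 of 10 in cycling-like cells (53.7%). The same held for 1 of 9 in cluster 3 (40.1%), 3 of 7 in interferon-stimulated-like (44.3%), 3 of 7 in innate killer-like (46.9%), 4 of 9 in early-activated-like cells (48.4%) and 4 of 6 in cluster 11 (51.6%). The plot of differences by class shows how unlike each other the genes were in this respect.

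**Figure D2:**
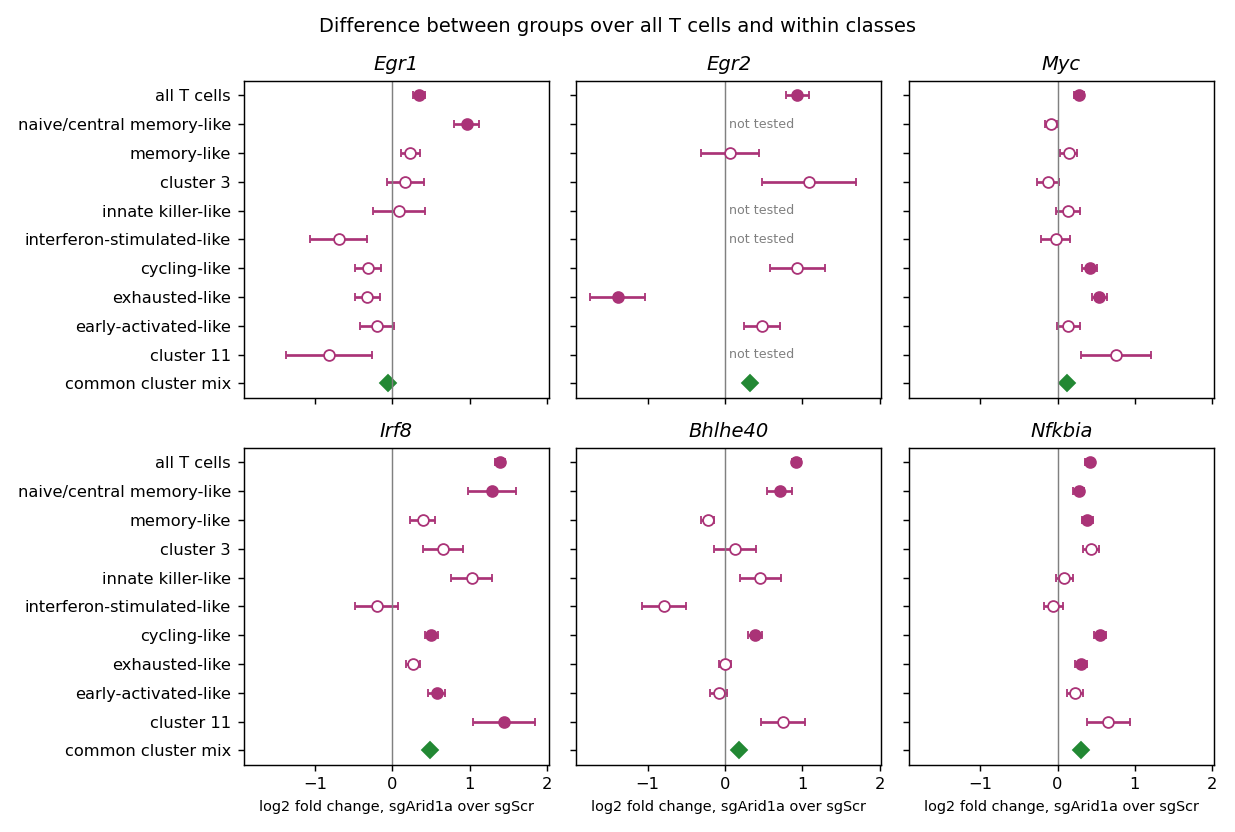
Log2 fold change of sgArid1a over sgScr (x axis) for 6 genes over all T cells, in each class and at a common cluster mix. Circles are edgeR estimates with bars of 1 SE, filled where the adjusted p is under 0.05; diamonds are log2 ratios of group means with a pseudocount of 1 CPM and no test. Irf8 and Bhlhe40 lie much farther right over all T cells (1.39 and 0.93) than at the common mix (0.48 and 0.18), and Egr2 lies left of 0 in exhausted-like cells.

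The Egr factors differed between the groups in different ways. Egr1 (chromosome 18), a zinc finger activator, stood at 15.2 and 14.9 CPM in sgScr and at 18.5 and 18.99 CPM in sgArid1a over all T cells. It rose by 0.34 ± 0.07 on the log2 scale (adjusted p = 0.00155) and was called in all 15 alternatives. By class its mean over the 4 samples was highest in cluster 11, at 60.5 CPM (17.9 to 85.4), then in early-activated-like cells, at 35.5 CPM (24.8 to 51.7), and lowest in naive/central memory-like cells, at 8.33 CPM (5.63 to 11.5). Every class overlapped its neighbour in this order.

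The rise of Egr1 was called within the class with the lowest level. In naive/central memory-like cells it stood at 6.05 and 5.63 CPM in sgScr and at 10.2 and 11.5 CPM in sgArid1a, with no overlap. The log2 fold change there was 0.96 ± 0.16 (adjusted p = 0.000914), and all 10 alternatives with an adjusted p called it. The class holds 3 clusters that the groups fill differently: the change was 1.07 ± 0.26 in cluster 1 (adjusted p = 0.0133, where 2.69% of all genes were called), 0.90 ± 0.34 in cluster 2 (0.194, 1.03%) and 0.56 ± 0.28 in cluster 5 (0.331, 2.46%). In the other 8 classes Egr1 was not called, and its estimates ran from -0.83 to 0.23.

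Egr2 (chr10:67535475-67542188, plus strand, GRCm38) gave few UMIs, from 77 to 403 per sample. It stood at 2.95 and 2.39 CPM in sgScr and at 5.19 and 4.95 CPM in sgArid1a over all T cells. It rose by 0.94 ± 0.15 (adjusted p = 0.000122), with no overlap. By class, its mean ran from 32.5 CPM (23.0 to 45.0 over the 4 samples) in early-activated-like cells to 0.544 CPM (0.265 to 0.749) in naive/central memory-like cells, a ratio of 59.8. Cluster 11, at 21.1 CPM (8.54 to 47.7), overlapped the early-activated-like cells, and the next class, exhausted-like, lay apart at 3.63 CPM (1.81 to 6.37).

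With each cell thinned to 1500 UMIs, 3.63 to 7.10% of early-activated-like cells had an Egr2 UMI, against 0.0496 to 0.193% of naive/central memory-like cells; unthinned, these shares were 12.9 to 19.6% and 0.0897 to 0.251%, at median depths of 7900 and 3161.5 UMIs. No class here must lack the gene, so the lowest class stands in for the level that free RNA could give. Early-activated-like cells gave 41.0 and 33.8% of the Egr2 UMIs in sgScr and 50% and 42.2% in sgArid1a. Within them Egr2 stood at 30.9 and 23.0 CPM in sgScr and at 45.0 and 31.1 CPM in sgArid1a, a log2 difference of 0.48 ± 0.23 that did not pass (adjusted p = 0.295).

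In exhausted-like cells Egr2 went the other way, at 4.31 and 6.37 CPM in sgScr and 1.81 and 2.03 CPM in sgArid1a, with no overlap. It fell by 1.39 on the log2 scale (SE 0.36, adjusted p = 0.0194), on 14 and 20 UMIs (sgScr) and 12 and 28 UMIs (sgArid1a). That call passed in 4 of 10 alternatives with an adjusted p. Without sgScr replicate 2 the log2 fold change was -1.10 (adjusted p = 0.321), without sgArid1a replicate 1 -1.35 (0.0592) and without sgArid1a replicate 2 -1.46 (0.0738). It was -0.65 (0.264) with the 10 genes among those used for clustering, -1.13 (0.105) without the Trbv13-1 and Trbv20 cells and -0.09 at a clustering resolution of 0.5 (adjusted p = 0.82, the highest; the lowest was 0.00445). In cycling-like cells the estimate was 0.94 ± 0.36 (adjusted p = 0.133). The difference of the Egr2 group effect among the 9 classes did not pass (adjusted p = 0.117).

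A CArG box lies in the windows before 4 of the 5 RefSeq start sites of Egr2, numbers 2 to 5, of which 3 to 5 share 1 box. It is the site of serum response factor, through which the MAP kinase route acts on early genes. The box of start site 3 is shown because Egr2 lay so far above the other named classes in early-activated-like cells. The stretch of 30 bases at chr10:67537787-67537816 (plus strand, RefSeq on GRCm38.p6), with the box in capitals starting 72 bases before that start site, reads:

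Egr2: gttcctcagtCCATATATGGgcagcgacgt

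A CArG box was found, on either strand, in 1.47% of 32851 windows of 250 bases before RefSeq start sites of 27025 genes. RefSeq windows matched 6 of the 10 genes: Egr2, Irf4, Irf8, Dusp2, Nfkbid and Nfkbia. The letters are a description of the window and were not tested for binding.

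Egr3, the family member that cooperates with Egr2, was at the edge of detection, with 25 to 157 UMIs per sample. It stood at 1.40 and 0.776 CPM in sgScr and at 1.53 and 1.93 CPM in sgArid1a. The groups did not overlap, and edgeR gave a log2 fold change of 0.70 ± 0.25 (adjusted p = 0.0302), while DESeq2 gave an adjusted p of 0.112. Without sgScr replicate 2 the change was 0.32 (adjusted p = 0.355, the highest of 15 alternatives, the lowest being 0.000777) and without sgArid1a replicate 2 it was 0.53 (0.215). By class it was highest in early-activated-like cells, at 5.76 CPM (3.54 to 9.33), and lowest in naive/central memory-like cells, at 0.647 CPM (0.132 to 1.30).

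The interferon regulatory factors and Bhlhe40 were higher in sgArid1a over all T cells. Irf8 (chr8:120736358-120756694, plus strand), a factor better known from myeloid and B cells and also induced in activated CD8 T cells, stood at 50.9 and 48.8 CPM in sgScr and at 120 and 137 CPM in sgArid1a. It rose by 1.39 ± 0.07 (adjusted p = 6.7e-09), was called in all 15 alternatives, and ranged over them from 1.05 to 1.71. By class, early-activated-like cells had 267 CPM (218 to 315 over the 4 samples), exhausted-like 211 (179 to 238) and cycling-like 177 (145 to 210), each overlapping the next. Cluster 11 (128 CPM, 34.2 to 211), interferon-stimulated-like cells (34.2 CPM, 20.3 to 54.5), innate killer-like cells (25.8 CPM, 17.3 to 38.8) and cluster 3 (24.0 CPM, 17.5 to 38.5) followed, again each overlapping its neighbours. Memory-like cells, which overlapped cluster 3, had 14.1 CPM (11.97 to 17.6) and naive/central memory-like cells, apart from them, 2.88 CPM (1.21 to 4.82).

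Irf8 was also the gene called in most classes, 4 of 9, together with Nfkbia. In early-activated-like cells it stood at 224 and 218 CPM in sgScr and 315 and 311 CPM in sgArid1a (log2 0.57 ± 0.11, adjusted p = 0.00437), and all 10 alternatives called it. In cycling-like cells it stood at 156 and 145 CPM against 195 and 210 CPM (0.50 ± 0.09, adjusted p = 0.000808), and all 11 alternatives called it. In both classes the groups did not overlap.

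In naive/central memory-like cells Irf8 rose from 1.21 and 2.45 CPM to 3.03 and 4.82 CPM (1.29 ± 0.31, adjusted p = 0.0167). The call was lost without sgScr replicate 1 (0.85), without sgArid1a replicate 2 (0.84) and with the 10 genes among those used for clustering (1.32, adjusted p = 0.0717). Of the clusters in this class, cluster 1 gave 2.23 ± 0.58 (adjusted p = 0.026) and cluster 5 gave 0.91 ± 0.38 (0.205), where 2.69 and 2.46% of all genes were called. In cluster 2 Irf8 was not tested, at 0.777 and 2.05 CPM in sgScr and 1.28 and 1.87 CPM in sgArid1a. In cluster 11 the change was 1.44 ± 0.40 (adjusted p = 0.046) on 4 and 25 UMIs in sgScr; without sgScr replicate 1 it was 1.02 (adjusted p = 0.322), without sgArid1a replicate 2 1.26 (0.257), and over 9 alternatives, of which 4 called it, the adjusted p ran from 0.00416 to 0.926. Innate killer-like cells missed the threshold narrowly, at 18.2 and 17.3 CPM against 28.8 and 38.8 CPM (1.03 ± 0.26, adjusted p = 0.0504), and passed in 6 of 10 alternatives. The test of a difference of the group effect on Irf8 among the classes did not pass (adjusted p = 0.0719), though it did in 3 of 5 alternatives, the lowest adjusted p being 0.00208 and the highest 0.457.

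Irf4, the signal-strength sensor of the family, stood at 3.70 and 4.13 CPM in sgScr and at 6.87 and 6.81 CPM in sgArid1a, and rose by 0.83 ± 0.12 (adjusted p = 5.08e-05; called in all 15 alternatives). Its levels made a step: 16.1 CPM (11.5 to 23.4) in early-activated-like, 10.7 (8.31 to 16.6) in exhausted-like and 10.7 (9.47 to 12.4) in cycling-like cells, then, without overlap, 2.42 (1.59 to 3.38) in memory-like cells. Cluster 11 had the highest mean, 36.8 CPM (15.5 to 61.3), overlapping the early-activated-like cells. Within classes Irf4 was called in 0 of 5 where it could be tested, and in cycling-like cells its difference was 0.01 ± 0.19 (adjusted p = 0.993).

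Bhlhe40 (chr6:108660629-108666925, plus strand), a basic helix-loop-helix repressor that supports cytokine production in activated T cells, stood at 80.4 and 82.5 CPM in sgScr and at 145 and 159 CPM in sgArid1a. It rose by 0.93 ± 0.06 (adjusted p = 7.01e-08; called in all 15 alternatives). By class it ran from 8.34 CPM (6.09 to 10.5) in naive/central memory-like cells through 73.6 (65.1 to 81.9) in memory-like and 220 (182 to 247) in cycling-like cells to 269 (251 to 289) in exhausted-like and 280 (263 to 302) in early-activated-like cells. The last pair overlapped and the other neighbours named did not. Cluster 11 lay above them at 500 CPM (306 to 688).

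Within classes the group effect on Bhlhe40 was far from uniform. It rose in naive/central memory-like cells, from 6.86 and 6.09 CPM to 9.95 and 10.5 CPM (0.71 ± 0.16, adjusted p = 0.0106), and in cycling-like cells, from 210 and 182 CPM to 242 and 247 CPM (0.39 ± 0.09, adjusted p = 0.00969). The first call passed in 6 of 10 alternatives. It was lost without sgScr replicate 2 (0.62, adjusted p = 0.143), without sgArid1a replicate 2 (0.70, 0.0715), at a clustering resolution of 0.5 (0.56, 0.0664) and with the 10 genes among those used for clustering (0.62, 0.0638), out of a range from 0.0013 to 0.143. Nor did it pass in any of the 3 clusters that make up the class, which differ in level and which the groups fill in different shares: 0.20 ± 0.24 (adjusted p = 0.741) in cluster 1, 1.35 ± 0.45 (0.14) in cluster 2 and 0.55 ± 0.26 (0.275) in cluster 5, where 2.69, 1.03 and 2.46% of all genes were called. In sgScr, cluster 1 stood at 11.9 and 9.75 CPM and cluster 2 at 1.42 and 2.34 CPM. The call in cycling-like cells was lost without sgScr replicate 2 (0.28, adjusted p = 0.278), out of a range from 0.000262 to 0.278. In exhausted-like cells the difference was 0.00 ± 0.08 (adjusted p = 0.999). In memory-like cells the estimate was -0.22 ± 0.08 (adjusted p = 0.138), with both sgArid1a samples, at 65.1 and 67.2 CPM, below both sgScr samples, at 80.2 and 81.9 CPM.

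The difference itself was tested in 1 model over the sums of the 9 classes in the 4 samples, with the sample as a block. The group effect differed among the classes for 4 of the 10 genes, Egr1, Myc, Bhlhe40 and Nfkbia, and for 7.32% of all 11683 genes. Without sgArid1a replicate 2 it was called for Myc and Bhlhe40 only, and the adjusted p of Egr1 was 0.214, the highest of its 5 alternatives, the lowest being 0.000556. Between the classes with most cells, naive/central memory-like and memory-like, it differed for Bhlhe40 alone, by 0.92 ± 0.19 on the log2 scale (adjusted p = 0.0049), against 0.642% of all genes. That difference was lost without sgScr replicate 2 (adjusted p = 0.0575) and without sgArid1a replicate 2 (0.418), and the lowest of its 5 alternatives was 0.0017.

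Myc, which drives growth and ribosome production in dividing cells, stood at 62.5 and 67.4 CPM in sgScr and at 72.4 and 82.1 CPM in sgArid1a. It rose by 0.28 ± 0.06 (adjusted p = 0.00226), a call lost without sgScr replicate 1 (0.24, adjusted p = 0.0589) and with cells thinned to 1500 UMIs (0.19, adjusted p = 0.0678, the highest of 15 alternatives, the lowest being 0.00011). Early-activated-like cells had most, 149 CPM (115 to 176), then cluster 3 with 109 CPM (81.8 to 125), and memory-like cells least, 49.6 CPM (43.1 to 57.5). Every class overlapped its neighbour.

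Myc differed within 2 classes. In exhausted-like cells it stood at 56.6 and 59.6 CPM in sgScr and 78.0 and 84.2 CPM in sgArid1a (0.54 ± 0.10, adjusted p = 0.00177). In cycling-like cells it stood at 62.2 and 60.5 CPM against 74.3 and 80.9 CPM (0.42 ± 0.10, adjusted p = 0.0127). Without cells carrying Trbv13-1 or Trbv20, both calls were lost, at 0.37 (adjusted p = 0.0567) and 0.33 (0.0972), and the call in cycling-like cells was lost without sgScr replicate 2 (0.38, adjusted p = 0.143). Over all alternatives these adjusted p ran up from 1.03e-05 and 0.00215. In naive/central memory-like cells the estimate was -0.08 ± 0.08 (adjusted p = 0.584).

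Dusp2, a nuclear phosphatase that switches off MAP kinases, did not pass the test over all T cells. It stood at 76.8 and 84.9 CPM in sgScr and at 72.9 and 87.5 CPM in sgArid1a, so the groups overlapped. The log2 fold change was 0.02 ± 0.07 (adjusted p = 0.833), and 0 of 15 alternatives called it. It was the member with the flattest order of classes, from 51.9 CPM (43.1 to 62.6) in naive/central memory-like to 140 CPM (111 to 166) in cluster 11, a ratio of 2.70, with memory-like cells in the upper part at 119 CPM (103 to 130). Within classes it was called in 0 of 9, and its estimates ran from -0.35 to 0.17.

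Nfkbia (chr12:55489410-55492647, minus strand) stood at 255 and 267 CPM in sgScr and at 338 and 344 CPM in sgArid1a, and rose by 0.41 ± 0.06 (adjusted p = 8.23e-05; called in all 15 alternatives). Early-activated-like cells had 605 CPM (553 to 654) and did not overlap the next class, cycling-like, at 348 CPM (286 to 416). Memory-like cells had least, 188 CPM (166 to 218).

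Nfkbia was called in 4 classes and was above 0 in 8 of 9. In cycling-like cells it stood at 286 and 298 CPM in sgScr and 416 and 393 CPM in sgArid1a (0.55 ± 0.08, adjusted p = 0.000223), and all 11 alternatives called it. In memory-like cells it stood at 166 and 170 CPM against 200 and 218 CPM (0.39 ± 0.07, adjusted p = 0.00632), in exhausted-like cells at 305 and 287 against 345 and 354 CPM (0.30 ± 0.08, adjusted p = 0.02) and in naive/central memory-like cells at 250 and 275 against 304 and 308 CPM (0.27 ± 0.07, adjusted p = 0.0214). Of the clusters in the memory-like class, cluster 0 gave 0.37 ± 0.08 (adjusted p = 0.00225), where 5.17% of all genes were called and 3.36% higher. Cluster 7 gave 0.39 ± 0.11 (adjusted p = 0.0384), where 1.5% of all genes were called and 1.11% higher. In the naive/central memory-like class, cluster 1 gave 0.39 ± 0.08 (adjusted p = 0.00437), cluster 2 gave 0.19 ± 0.09 (0.289) and cluster 5 gave 0.22 ± 0.09 (0.188). In these, 2.69, 1.03 and 2.46% of all genes were called. These 3 class calls were each lost without some sgScr sample: the memory-like one without replicate 1 (adjusted p = 0.0971) or 2 (0.118), the exhausted-like one without replicate 2 (0.305) and the naive/central memory-like one without replicate 1 (0.426) or 2 (0.235). The estimates moved little, between 0.22 and 0.42 in these leave-outs.

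The difference of the Nfkbia group effect among the classes passed (adjusted p = 0.007) but not without sgScr replicate 1 (0.0607), sgArid1a replicate 2 (0.0856) or the cycling-like class (0.0843), its other alternatives going down to 0.00574. In interferon-stimulated-like cells the estimate was -0.05 ± 0.12 (adjusted p = 0.91).

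Nfkbid (chr7:30421732-30428746, plus strand) stood at 14.5 and 12.5 CPM in sgScr and at 14.3 and 16.4 CPM in sgArid1a, with overlap, and did not pass over all T cells (0.22 ± 0.09, adjusted p = 0.0649). It passed in 8 of 15 alternatives, among them without sgScr replicate 1 (0.35, adjusted p = 0.0163), without sgArid1a replicate 1 (0.28, 0.0174), without cells of Trbv13-1 or Trbv20 (0.39, 0.00342) and with cells thinned to 1500 UMIs (0.49, 0.00829); the highest adjusted p was 0.613. By class its mean was highest in early-activated-like cells, at 46.7 CPM (31.9 to 60.3), which overlapped cluster 11 (33.6 CPM, 20.4 to 53.7). Nfkbid was lowest in naive/central memory-like cells, at 8.67 CPM (7.32 to 10.5). It was called in 0 of the 8 classes where it was tested.

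NF-kB motifs stand before the start site of Nfkbia and before start site 2 of Nfkbid, but not before its start sites 1 and 3. The windows with motifs are shown because both genes had their highest mean in early-activated-like cells. They are the 250 bases upstream, from RefSeq on GRCm38.p6, at chr12:55492648-55492897 (minus strand) for Nfkbia and chr7:30422156-30422405 (plus strand) for a start site of Nfkbid, with the motifs in capitals:

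Nfkbia: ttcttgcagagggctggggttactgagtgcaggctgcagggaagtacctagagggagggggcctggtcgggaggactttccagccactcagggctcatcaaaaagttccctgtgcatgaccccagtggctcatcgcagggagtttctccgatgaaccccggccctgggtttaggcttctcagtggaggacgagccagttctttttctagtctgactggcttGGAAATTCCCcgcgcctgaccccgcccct

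Nfkbid: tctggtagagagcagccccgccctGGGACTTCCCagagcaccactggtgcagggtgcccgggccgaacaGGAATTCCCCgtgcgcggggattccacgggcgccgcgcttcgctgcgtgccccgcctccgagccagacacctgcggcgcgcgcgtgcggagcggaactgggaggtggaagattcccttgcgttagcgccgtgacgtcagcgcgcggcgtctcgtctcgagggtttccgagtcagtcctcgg

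The Nfkbia motif starts 29 bases before the start site, and those of Nfkbid 226 and 181 bases before it. A motif of this kind, searched on both strands, was in 7.25% of all 32851 windows. The Egr site (GCGNGGGCG, in 4.70% of windows) was found in the Dusp2 window. The E-box (CACGTG, 6.02%), the letters that Myc binds, was there too and before 1 of the Egr2 start sites, whose window also held overlapping NF-kB motifs.

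**Figure D3:**
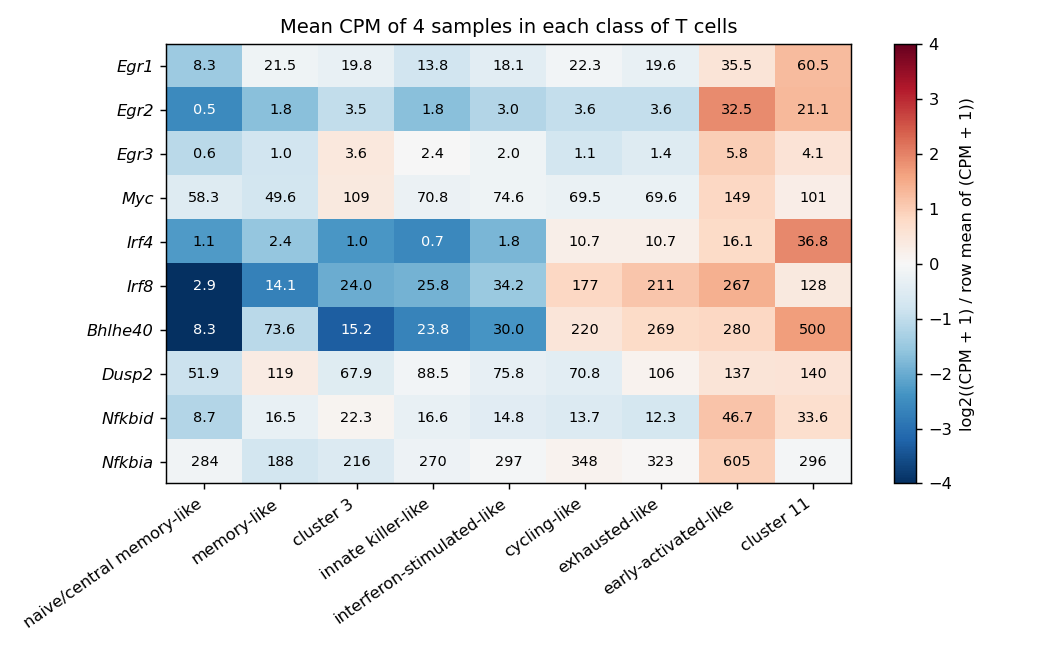
Mean CPM of the 4 samples (numbers) for each gene and class; the colour is the log2 ratio of the level plus 1 CPM to the mean of its row. Early-activated-like cells are above the row mean for all 10 genes, Irf4, Irf8 and Bhlhe40 are also raised in exhausted-like and cycling-like cells, and Dusp2, Myc and Nfkbia vary least.

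The sums over all T cells were also broken down by the class the UMIs came from. Early-activated-like, exhausted-like and cycling-like cells together were 9.55 and 9.70% of sgScr cells and 23.5 and 25.0% of sgArid1a cells. They gave 91.2 and 86.7% of the Irf8 UMIs in sgScr and 92.8 and 93.5% in sgArid1a. For Bhlhe40 these shares were 74.1 and 73.1% against 88.6 and 89.9%, and for Nfkbia 32.5 and 31.5% against 64.3 and 65.6%. Among UMIs of every gene, these cells held 24.7 and 25.1% in sgScr and 51.7 and 55.2% in sgArid1a, and cycling-like cells had a median of 14203 UMIs per cell.

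**Figure D4:**
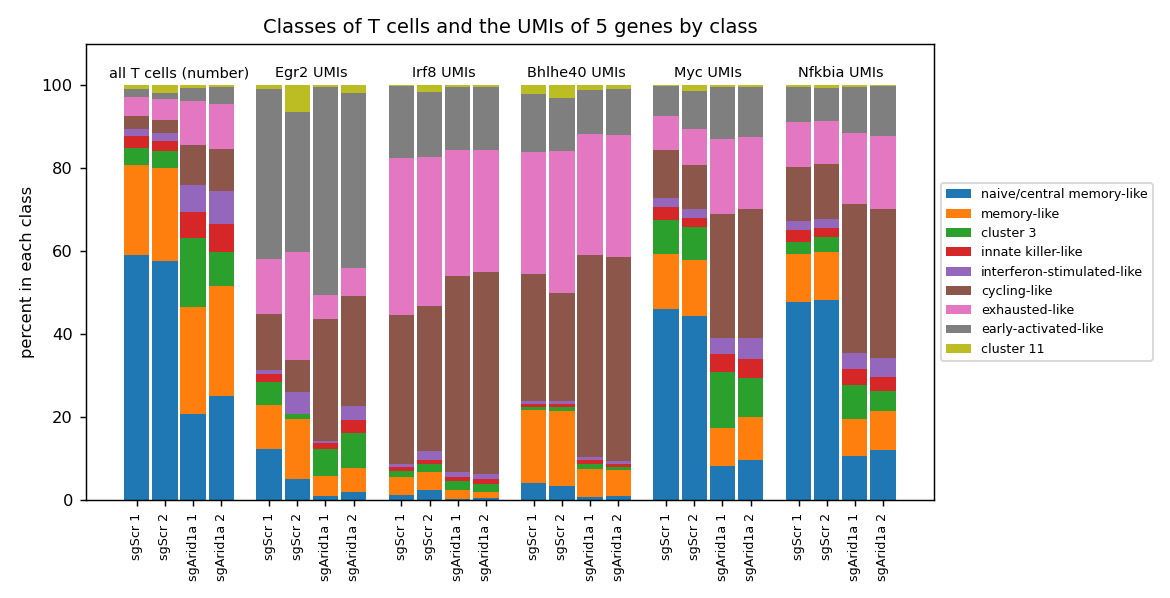
Percent of T cells (left block) and of the UMIs of 5 genes (other blocks) that fall in each class, 1 bar per sample. Cycling-like, exhausted-like and early-activated-like cells hold 23.5 and 25.0% of sgArid1a cells but 92.8 and 93.5% of their Irf8 UMIs.

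The levels were also computed at 1 common mix of the 12 T cell clusters in every sample, as a description without a test. Irf8 then stood at 77.7 and 72.1 CPM in sgScr and at 100 and 110 CPM in sgArid1a, a log2 ratio of 0.48 where the sums gave 1.34 on the same scale (pseudocount of 1 CPM). The ratio of Bhlhe40 went from 0.89 to 0.18, that of Irf4 from 0.67 to 0.13 and that of Egr2 from 0.73 to 0.33. Nfkbia changed least among the genes called, from 0.38 to 0.30. For these 5 genes the groups did not overlap, as for 60.8% of all 12792 genes at this mix, whose median ratio was -0.07. Egr1 was at -0.05, Dusp2 at -0.17, Nfkbid at -0.05, Myc at 0.12 and Egr3 at 0.15, all with overlap. The median over the 10 genes was 0.38 before and 0.14 after. The clusters rest on other genes of the same response, so holding them equal can take away some of a change by construction.

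Cell by cell, 43.9 and 44.3% of sgScr and 49.9 and 52.7% of sgArid1a cells had a UMI of at least 1 of the 10 genes at 1500 UMIs per cell; an exact two-sided permutation test over samples gave p = 0.333, the smallest that 2 against 2 can give. Without thinning the group means were 69.6 and 69.7%. Irf8 alone was seen in 2.61 and 2.66% of sgScr and 8.36 and 7.89% of sgArid1a cells, and Bhlhe40 in 5.82 and 5.89% against 10.6 and 11.4%, both thinned. Among early-activated-like cells 77.0, 76.7, 84.3 and 81.0% had a UMI of any of the genes, in the order sgScr 1 and 2, sgArid1a 1 and 2, and in naive/central memory-like cells 38.9, 39.8, 37.9 and 42.6%.

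Some of the genes were read together in the same cells. At 1500 UMIs, 24.7% of the 158 T cells with an Egr2 UMI also had Egr1, against 1.86% of the other cells, and the difference had this direction in all 4 samples. Within early-activated-like cells, 19.4% of the 175 cells with Myc also had Nfkbid, against 3.50% of those without, and 13.7% had Egr2, against 3.61%; sgScr replicate 1 had too few cells with Myc for a share of its own. Bhlhe40 did not share this pairing: it was in 26.9% of cells with Myc and 31.0% of cells without. Cells with Irf8 had Egr2 in 10.6% of cases, against 3.08%.

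Across the 36 sums (9 classes in 4 samples), likeness was measured by Pearson correlation of log2(CPM + 1), a description over sums that share libraries and differ in depth. Irf4 correlated with Bhlhe40 at 0.90, and Irf8 with Bhlhe40 at 0.85. Of 5697 genes averaging 20 CPM or more, the most similar to Irf8 were Sept7 (0.93), Tnfrsf9 (0.93) and Nr4a2 (0.92), to Irf4 Rbpj, Mir155hg (both 0.94) and Nrn1 (0.93), and to Bhlhe40 Serpinb9 (0.98), Eea1 and Sh3bgrl (both 0.97). Egr2 was most like Crtam, Tnfsf11 (both 0.85) and Cd83 (0.84), and Nfkbid like Crtam (0.81), Nr4a1 (0.78) and Nr4a3 (0.73). Crtam, Tnfrsf9, Nr4a1 and Nr4a3 are also markers by which the early-activated-like class was named. Likeness over sums of such classes can therefore be partly built in.

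For Myc the most similar were Mettl1 (0.82), Pes1 (0.79) and Mphosph10 (0.77). For Dusp2 they were Slamf7 (0.85), Cd2 (0.83) and Cd44 (0.81), and for Egr1 B4galnt1 (0.80), Runx2 and Zranb2 (both 0.79). The closest to Nfkbia were Bmyc, Sdf4 (both 0.78) and Tmem70 (0.77), and to Egr3 St6galnac4 (0.61), Nfkbid (0.60) and Bcat2 (0.59).

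Other genes of these routes were counted over all T cells, where 28% of all 12792 genes were higher in sgArid1a and 26.4% lower. The same shares apply to the later lists of heat shock genes and of markers of other cells. Of 24 other receptor-induced early genes, 18 were higher and 4 lower in sgArid1a, with a median log2 fold change of 0.86. Led by smallest p, these were Rgs16 and Rgs1, regulators of G protein signalling (1.54 ± 0.06 and 1.47 ± 0.06), and the chemokine Xcl1 (1.96 ± 0.08), with edgeR adjusted p up to 4.38e-09. Of 16 tested Egr partners and reported targets, 9 were higher and 3 lower (median 0.31). Nrgn, a calmodulin-binding protein, rose by 2.09 ± 0.06 and Tnfrsf9, the costimulatory receptor 4-1BB, by 1.38 ± 0.07, while Dgka, a kinase that removes the second messenger diacylglycerol, fell by 0.89 on the log2 scale (adjusted p up to 7.64e-08).

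The IRF family and its partners had 9 of 17 tested genes higher and 2 lower (median 0.27). Ikzf1, the Ikaros factor, fell by 0.46 on the log2 scale, and Irf5 rose by 0.83 ± 0.11 (adjusted p up to 3.67e-05). Of 23 NF-kB subunits, inhibitors and route genes, 6 were higher and 9 lower (median -0.11). The kinases Map3k14 and Ikbkb fell by 0.73 and 0.60 on the log2 scale, and Nfkbib, another cytoplasmic inhibitor, rose by 0.48 ± 0.06 (adjusted p up to 3.92e-05).

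Of 18 MAP kinase phosphatases and feedback genes, 9 were higher and 4 lower (median 0.21). Unlike Dusp2, the phosphatases Dusp1 (1.21 ± 0.08), Dusp4 (0.85 ± 0.09) and Dusp14 (0.94 ± 0.12) rose, with adjusted p up to 1.63e-05. Of 25 genes of the Myc network and its targets, 16 were higher and 4 lower (median 0.26), led by Odc1 and Srm of polyamine synthesis (0.76 ± 0.06 and 0.86 ± 0.08) and the cell cycle kinase Cdk4 (0.67 ± 0.06; adjusted p up to 1.47e-06). Of 24 receptor signalling components, 4 were higher and 13 lower (median -0.20). The phosphatase Ptpn6 rose by 0.68 ± 0.06, and the exchange factor Sos1 and the phospholipase Plcg1 fell by 0.80 and 0.59 on the log2 scale (adjusted p up to 3.86e-06).

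Most genes of heat shock and tissue dissociation were also higher in sgArid1a, and several are themselves early genes. Of 24 tested, 19 were higher in sgArid1a and 2 lower, among them Dusp1, Fos (0.86 ± 0.06) and the chaperonin Hspd1 (0.74 ± 0.06; adjusted p up to 4.43e-07). Their summed level was 7329 and 7445 CPM in sgScr and 9031 and 9527 CPM in sgArid1a, and in 9 of 9 classes both sgArid1a samples were above both sgScr samples. The largest parts of the sum were Hsp90ab1 (2167 and 2248 against 3282 and 3218 CPM) and Hspa8 (1714 and 1686 against 1851 and 2140 CPM). Btg1 went the other way, at 560 and 570 against 342 and 365 CPM, and Hspa1a overlapped between the groups. Their part in the results was not tested.

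Markers of other cells, among them types that express Irf8, were counted the same way. Of 11 tested dendritic cell and macrophage markers, 9 were higher in sgArid1a and 1 lower. Itgax, a dendritic cell marker of this list, went down, at 4.46 and 5.06 CPM in sgScr and 2.62 and 3.03 CPM in sgArid1a. The list summed to 161 and 172 CPM in sgScr and 268 and 273 CPM in sgArid1a. Most of that was Cst3 (114 and 112 against 157 and 159 CPM) and Cd74, the invariant chain that associates with MHC class II (32.2 and 40.2 against 84.7 and 83.6 CPM). The MHC class II chain H2-Ab1 was at 3.90 to 9.88 CPM. Low macrophage markers were among those that rose: C1qc, from 0.0842 and 0.217 to 0.382 and 0.761 CPM (2.07 ± 0.50, adjusted p = 0.00335), C1qb (1.62 ± 0.42, 0.0054), Lyz2 (2.08 ± 0.56, 0.00697) and C1qa (1.39 ± 0.55, 0.0461), each at 1.30 CPM or less in every sample. Siglech, a marker of plasmacytoid dendritic cells, was at 0 in every sample, and Clec9a, Flt3 and Adgre1 were at 0 to 0.0561 CPM. B cell markers were lower in 3 of 3 tested genes, Cd79b, Ighm and Igkc (-0.59 ± 0.09, -0.30 ± 0.06 and -0.22 ± 0.07, adjusted p up to 0.0132), and summed to 180 and 179 against 137 and 148 CPM, with Pax5 at 0.

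Of 6 tested natural killer markers, 4 were higher and 1 lower, led by Klre1, Fcer1g and Tyrobp (1.21 ± 0.08, 1.87 ± 0.14 and 1.29 ± 0.15, adjusted p up to 8.6e-06). Eomes, the largest of the list in CPM, went the other way, at 52.1 and 56.2 CPM in sgScr and 43.3 and 44.4 CPM in sgArid1a. The list summed to 81.9 and 84.5 against 119 and 112 CPM, with Ncr1 at 0 to 0.153 CPM. CD4 and regulatory T cell markers were higher in 3 of 5, Il2ra, Ctla4 and Cd40lg (1.30 ± 0.10, 0.50 ± 0.08 and 0.60 ± 0.21, adjusted p up to 0.0267), and summed to 31.8 and 39.1 against 58.0 and 55.8 CPM, with Cd4 at 0.196 to 0.838 CPM. Melanoma markers were lower for Mitf (-0.70 ± 0.20) and not called for 2 others, Mlana and Pmel, and summed to 1.73 to 2.55 CPM; red cell markers summed to 0.0281 to 0.0764 CPM. Klre1, Fcer1g and Tyrobp were also among the raised markers of the innate killer-like class of T cells, and Ctla4 among those of the exhausted-like class. Innate killer-like cells made up 2.71 and 2.57% of sgScr and 6.35 and 6.69% of sgArid1a T cells. The part of the markers of other cells in the results was not tested.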

How the data were processed

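CD8 T cells of 4 samples (2 sgScr, 2 sgArid1a) were read as UMI counts per gene and cell. The authors deposited whole-number counts, made with Cell Ranger 6.0.1 per the file headers; version 3.0.2, Seurat and mm10 are what the submitters' processing notes name, and the difference could not be settled. The deposited counts were raw.

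Of 39473 barcodes, the 38316 with 500 genes or more and a mitochondrial share up to 10% entered. Cells were clustered in scanpy 1.11.5 (2000 variable genes without the 10 genes described, or genes of antigen receptors, antibodies, mitochondria, ribosomes and sex chromosomes, 30 principal components, 15 neighbours, leidenalg 0.10.2 at resolution 0.8, seed 1). Clusters were named from marker lists, so names are rebuilt and end in "-like"; 57 cells with B cell and MHC class II genes were left out, which gave 38259 T cells. No doublet caller was relied on; cells in which 2 Trbv segments each reached 2 UMIs (6.73 to 13.2% per sample) were removed as an alternative.

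Sums of counts in each sample, for the T cells together and for classes with 50 cells or more in every sample, were tested with edgeR 4.0.16 (TMM, filterByExpr, glmQLFit, glmQLFTest, Benjamini-Hochberg over all genes tested, adjusted p under 0.05) in R 4.3.3, with DESeq2 1.42.0 as an alternative. On simulated counts for all T cells, 73.4% of genes changed 1.5-fold and 90.9% changed 2-fold were recovered. Only 199 and 197 of the genes tested there were changed, against 54.4% of genes called in the data, and no class was simulated. These shares therefore do not give the power of the tests reported here. Fold changes at the common mix used a pseudocount of 1 CPM. The genes and lists were chosen with earlier results of these data known. Named were the 10 genes, Arid1a, the 3 genes of smallest p in each list and the 3 most correlated genes; some items under this rule are not reported here. Gene positions come from GENCODE M21.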

Additional observations from a re-analysis of the deposited data

Results flagged for a closer look

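The group effect differed among the 9 classes for 4 of the 10 genes, by the interaction test in edgeR. For Bhlhe40 the adjusted p was 1.26e-06, with estimates from -0.79 in interferon-stimulated-like to 0.76 in cluster 11, and it passed in all 5 alternatives. For Egr1 it was 0.00526, with estimates from -0.83 in cluster 11 to 0.96 in naive/central memory-like cells, and it was 0.214 without sgArid1a replicate 2. For Nfkbia it was 0.00700, with estimates from -0.05 to 0.66. For Myc it was 0.0201, with estimates from -0.12 in cluster 3 to 0.76 in cluster 11, and it passed in all 5 alternatives. Of these end points, only that of Egr1 in naive/central memory-like cells was called within its class. Those of Bhlhe40 had edgeR adjusted p of 0.167 and 0.134. Cluster 11, the source of several end points, held 54 to 124 cells per sample. Between naive/central memory-like and memory-like cells the effect on Bhlhe40 differed with an adjusted p of 0.0049. The classes of 1 sample share a library, and the sums of the classes enter this test as separate values.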

How the results depend on the processing

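Over all T cells the count of 8 genes called stayed between 7 and 9 in 15 alternatives, 2 of them, without cluster 11 and without early-activated-like cells, chosen after seeing the data. Of 996 recomputed values of single genes, 902 kept their side of the threshold or, where no test was run, stayed within the spread. These include uncalled values whose direction changed, as for Bhlhe40 in exhausted-like cells, where 4 of 11 alternatives kept it. A further 34 lost and 44 gained a call, 16 moved by more than the spread and 0 called ones changed direction. Counts within classes were less stable. Except with DESeq2 and the replicate block, the share of all genes called under each setting was not counted. A change in these counts therefore cannot be set against that share. Without a filter on low counts, 5 genes were called in exhausted-like cells (3 with it) and 1 each in cluster 3 and innate killer-like cells (0 with it). With DESeq2, 1 was called in naive/central memory-like cells, where it called 263 of all genes, and 0 in cluster 11, where it called 19. Its filter gave no adjusted p to 3 of the 4 genes called by edgeR in naive/central memory-like cells. At a resolution of 0.5, 1 was called in cluster 3, 1 in innate killer-like cells and 0 in cluster 11; at 1.2, 1 in innate killer-like cells and 0 in cluster 11. With the 10 genes among the variable genes, the counts were 2 in naive/central memory-like cells, 3 in cluster 3, 1 in innate killer-like cells, 2 in early-activated-like cells and 0 in cluster 11. Without Trbv13-1 and Trbv20 cells, 1 was called in exhausted-like cells. Leaving out each sample in turn gave 0 to 3 in memory-like, 2 to 5 in naive/central memory-like, 0 to 2 in cluster 3, 0 to 1 in innate killer-like, 1 to 2 in early-activated-like cells and 0 to 2 in cluster 11; a group's lone sample is then assumed to vary like the other group. The interaction count of 4 ran from 2 to 6, and that of 1 between the pair of largest classes from 0 to 1. Cause was not tested. Replicate numbers pair nothing in the labels, and deviations of same-numbered samples correlated at -0.0426. With the replicate block 9 genes were called over all T cells and 7055 genes in all (6956 without). In cluster 3 and innate killer-like cells it called 1 of the 10 genes each, and 84 and 263 of all genes (55 and 122 without). The share of cells with any of the 10 genes rose by 7.23 percentage points at 1500 UMIs per cell and by 0.104 without thinning, where depth differs between samples. The median log2 ratio at the common mix stayed between 0.12 and 0.21. Depth limits Egr2, Egr3 and Irf4 within classes most.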
